A study of Mus musculus with 7 samples.

Results

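The 9 genes described here encode the constant parts of mouse antibodies and the protein that joins antibody units together. They were Ighm, Ighd, Igha, Ighg1, Ighg2b, Ighg2c and Ighg3 (heavy chain constant regions), Igkc (the kappa light chain constant region) and Jchain (the joining chain). They were chosen by symbol from the 49315 genes of a table of raw read counts, and all 9 were found and had counts in every library. RNA was measured by poly(A)-selected sequencing in bone marrow of chow-fed mice that had undergone hindlimb ischemia, a surgical loss of blood supply to a leg. The 3 control libraries (flox) carried the genotype label miR-181a2b2flox/flox, that is, floxed copies of a microRNA cluster, while their titles call them WT, and the 4 knockout libraries (KO) the label miR-181a2b2-/-. The labels name no Cre driver, strain or age, and do not say whether each library came from its own mouse. The p-values therefore speak only of the spread among these libraries, and that spread may be technical.

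A B cell first joins variable segments into a heavy chain and makes it with the mu constant region (Ighm, the heavy chain of IgM). A mature naive B cell makes IgM and IgD together by splicing 1 long transcript to Ighm or Ighd. After activation it can cut out the DNA between the variable region and a later constant gene, which replaces Ighm by a gene for IgG (Ighg genes) or IgA (Igha) and is called class switching. Plasma cells, many of which live in bone marrow, secrete large amounts of antibody, and IgA is best known from the mucosal surfaces of the gut. Each heavy chain pairs with a light chain, kappa or lambda, and Jchain links units of secreted IgM and IgA. In bulk marrow, fewer cells of a type and less RNA per cell cannot be told apart, and 1 count per gene does not separate membrane from secreted forms.

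On GRCm38 with the GENCODE M21 annotation, the heavy chain genes lie on the minus strand of chromosome 12, in the order of transcription Ighm (chr12:113418558-113422730), Ighd (chr12:113406604-113416324), Ighg3 (chr12:113356224-113361232), Ighg1 (chr12:113325240-113330523), Ighg2b (chr12:113302965-113307933), Ighg2c (chr12:113285325-113288932) and Igha (chr12:113254830-113260236). Igkc lies on the plus strand (chr6:70726435-70726966) and Jchain on the minus strand (chr5:88519809-88527891). No exon of the 9 genes overlapped an exon of another annotated gene. The 54 coding bases before the stop codon show which chains can take the joining chain, and they are given 5′ to 3′ from the GENCODE M21 transcripts. Secreted IgM and IgA end in a short tail whose second last codon is a cysteine, the known point of attachment of Jchain. That codon is in capitals, and the same stretch of 2 IgG genes follows.
Ighm-201 (chr12:113420870-113420923, minus strand): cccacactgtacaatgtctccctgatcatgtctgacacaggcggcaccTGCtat
Igha-201 (chr12:113258771-113258824, minus strand): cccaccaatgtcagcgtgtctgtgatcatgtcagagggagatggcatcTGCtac
Ighg2b-201 (chr12:113306392-113306445, minus strand): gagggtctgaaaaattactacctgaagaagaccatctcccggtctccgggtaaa
Ighg2c-202 (chr12:113287392-113287445, minus strand): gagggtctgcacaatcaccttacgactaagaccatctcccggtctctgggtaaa

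The 4 Ighg genes are close relatives, so reads of one could in principle be counted for another. Their hinge exons, which code for the flexible link between the arms and the stem of IgG, differ in length and sequence and are shown with in-frame cysteine codons in capitals.
Ighg1, exon 2 (chr12:113329844-113329882, minus strand): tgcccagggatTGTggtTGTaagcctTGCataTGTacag
Ighg2b, exon 2 (chr12:113307261-113307326, minus strand): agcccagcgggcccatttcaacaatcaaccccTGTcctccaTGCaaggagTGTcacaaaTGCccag
Ighg2c, exon 2 (chr12:113288263-113288325, minus strand): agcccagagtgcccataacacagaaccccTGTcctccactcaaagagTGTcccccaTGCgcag
Ighg3, exon 2 (chr12:113360529-113360576, minus strand): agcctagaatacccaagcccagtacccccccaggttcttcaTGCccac
The hinge exons held 4, 4, 3 and 1 such codons in that order. Over the whole transcripts, 5.49% of the 50-base windows of Ighg2c and 4.15% of those of Ighg2b occurred unchanged in another constant gene. The share was 1.58% for Ighg3, 0.39% for Ighg1 and 0 for Ighm, Ighd, Igha, Igkc and Jchain. With 100-base windows no member shared a window with another constant gene. How reads that match several genes were treated is unknown here, so small Ighg values beside large ones are uncertain. Mice of some strains carry Ighg2a in place of Ighg2c, and Ighg2a is not analysed here.

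Total counts ran from 43110251 to 51688514 per library. The 9 genes took 0.248% to 0.46% of them. The library flox 1 stood apart from the other 6, at a first principal component score of -58.7 against -14.2 to 23.2. This component also separated the groups, with flox 2 at -14.2, flox 3 at -5.48 and the KO libraries at 16.6 to 23.2. For members, shares, ratios and list medians, printed differences that move by over 1.5 times without flox 1 are given both ways. Fold changes of single genes outside the members are given for all 7 libraries only, so their dependence on flox 1 is not shown. Summed neutrophil and erythroid marker genes stood at 33693 to 60280 and 34524 to 72638 CPM, cell types of the labelled bone marrow. The extraction text of the labels speaks of adipose tissue instead. CPM are read counts divided by library size, here after scaling by the TMM method.

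Kappa light chain and mu heavy chain were the most abundant members. Per kilobase of annotated exon, Igkc was first in all 7 libraries, at 950 to 2037 CPM per kb. Ighm ranked 2 in 6 libraries, and in flox 1 it ranked 3, behind Igha. Jchain ranked 4 in 6 libraries and 5 in KO 3, where Ighg2c stood above it. Below these, Ighg2c, Ighd, Ighg1 and Ighg2b changed places between libraries, and Ighg3 was last in 5 of 7. The epsilon gene Ighe, for IgE, had 7 to 24 counts per library. These orders depend on annotated length, since the union exons of Igha, Ighg1, Ighg2b and Ighg3 include long membrane-form ends that secreted transcripts lack.

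Antibody genes were among the most variable genes of the series. The standard deviation of log2 CPM over the 7 libraries exceeded that of over 97% of the 17920 tested genes for 6 members, with Ighg3 (99.95%), Ighd (99.7%) and Ighg2c (99.7%) highest. Igkc (74.5%), Ighg1 (73.5%) and Jchain (82.1%) varied least. The highest library exceeded the lowest by 60.7 times for Ighg3, 18.7 times for Ighd and 2.09 times for Ighg1.

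**Figure D1:**
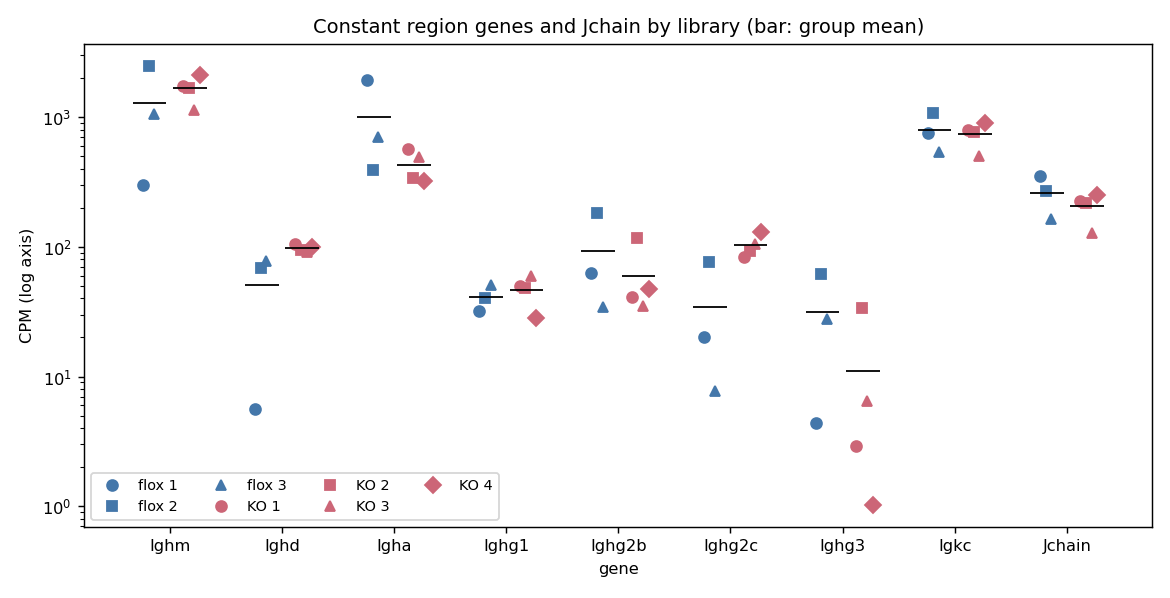
Level of each gene (CPM, log axis) in every library, with flox in blue, KO in red, symbols for the library number and bars for group means. Flox 1 is the lowest library for Ighm and Ighd and the highest for Igha, and the 4 KO libraries lie above the 3 flox libraries only for Ighd and Ighg2c.

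No member passed the comparison of KO with flox. An edgeR quasi-likelihood test over 17920 genes called 26 of them at an adjusted p of 0.05 (0.145%), of which 0.134% of all genes were higher and 0.0112% lower, and 0 of the 9 members. At an unadjusted p under 0.05 the same test gave 0 members, against 14.1% of all tested genes. DESeq2 called 365 genes (2.04%) and limma-voom 13 (0.0725%), with 0 members in either. In DESeq2, unadjusted p-values under 0.05 were found for 2 members (Igha, Ighg2c), beside 2451 of all 17920 tested genes. In limma-voom they were found for 1 member (Ighg2c), beside 2628 of the 17920 genes. Of the members, 4 had a higher and 5 a lower fitted value in KO, and their median log2 fold change was -0.09, beside -0.01 for all tested genes. Groups did not overlap for 2 of 9 members (22.2%), Ighd and Ighg2c, both higher in KO, while 13.6% of all tested genes had groups that did not overlap and 6.22% were so in the higher and 7.41% in the lower direction.

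Ighd and Ighm serve B cells before class switching, and neither passed the test. Ighd stood at 5.62, 68.7 and 77.2 CPM in flox 1 to 3 and at 105, 94.9, 90.6 and 99.2 CPM in KO 1 to 4. Every KO library was above every flox library, and the KO libraries lay close together. Group means were 50.5 ± 39.1 CPM for flox (SD, n = 3) and 97.4 ± 6.11 CPM for KO (SD, n = 4). As a log2 fold change this was 0.95 (95% interval -0.96 to 2.86, SE 0.78, adjusted p = 0.666 by edgeR), and without flox 1 it was 0.41 (adjusted p = 0.225).

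Ighm did not separate the groups. It stood at 302, 2485 and 1061 CPM in flox and at 1731, 1676, 1136 and 2128 CPM in KO. Both the lowest and the highest library were flox. Its log2 fold change was 0.38 (95% interval -1.26 to 2.02, SE 0.67, adjusted p = 0.866 by edgeR). It was -0.09 without flox 1 and 1.30 without flox 2, so single flox libraries set its sign and size.

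The ratio of Ighd to Ighm, per kilobase, was 0.0184, 0.0275 and 0.0722 in flox and 0.0602, 0.0562, 0.0792 and 0.0463 in KO. Flox 1 and flox 2 were the lowest libraries, and flox 3 lay within the KO range. The log2 ratio was higher by 0.84 in KO (exact two-sided permutation p = 0.171, adjusted p = 0.457 over 12 shares and ratios). The difference was 0.41 without flox 1 and 1.40 without flox 3. The smallest p that the 35 arrangements of the labels can give is 0.0286.

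Most markers of the B lineage were also low in flox 1, the library with the least Ighm and Ighd. Summed over 15 B cell receptor and surface genes, which include the signalling partners of membrane IgM and IgD, the level was 358, 911 and 1124 CPM in flox and 1144 to 1454 CPM in KO. Cd79a, which carries the signal of the receptor, stood at 11.8, 87.1 and 126 CPM in flox and at 137 to 169 CPM in KO. Btk and Cd180, also among the 15, were not low in flox 1, at 4148 and 1728 counts. In the other libraries they had 3468 to 4792 and 1177 to 2462 counts. Cd37 was only mildly low in flox 1, at 7607 counts against 8934 to 11460, so the sums do not rest on B cell genes like Cd79a alone. In this list 13 of 15 genes had a positive log2 fold change, 0 passed, and the median was 0.91, or 0.42 without flox 1. By lowest p they were the adaptor gene Blnk (0.91, edgeR adjusted p = 0.434), the kinase gene Blk (1.13), the coreceptor gene Cd72 (0.98) and Fcrla (1.03). The pro-B and pre-B list includes genes of the surrogate light chain and of antibody gene rearrangement. Vpreb1, for example, had 47 counts in flox 1 and 381 to 1283 in the other libraries. Cd93 and Erg, also in the list, were not low there, at 5937 and 2033 counts in flox 1. Elsewhere they had 5645 to 6721 and 1574 to 2291 counts. The 13 genes of the list summed to 209, 447 and 627 CPM in flox and 646 to 813 CPM in KO. Their median was 1.19, or 0.77 without flox 1, with 12 positive and 0 called. Il7r, the interleukin 7 receptor, gave 1.19 (SE 0.35, edgeR adjusted p = 0.254), the surrogate light chain gene Vpreb2 1.41, the recombinase gene Rag2 1.39 and Dntt, which adds bases at the joins, 1.19. The part of these markers in the Ighd difference was not tested.

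Igha, the heavy chain gene of IgA, was dominated by 1 library. It stood at 1934, 393 and 707 CPM in flox and at 567, 340, 492 and 325 CPM in KO. Flox 1 was highest by far, and flox 2 lay within the KO range. For Igha the log2 fold change was -1.23 (95% interval -2.60 to 0.14, SE 0.56, adjusted p = 0.395 by edgeR), and without flox 1 it was -0.36 (adjusted p = 0.689).

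Jchain, which IgA and IgM share, did not pass either. It stood at 351, 269 and 164 CPM in flox and at 224, 216, 129 and 253 CPM in KO. The groups overlapped, with flox 1 highest and KO 3 lowest. The estimate was -0.35 on the log2 scale (95% interval -1.09 to 0.40, SE 0.31, adjusted p = 0.693 by edgeR). Without flox 1 it was -0.08, without flox 3 it was -0.59 and without KO 3 it was -0.16. Per kilobase, the ratio of Jchain to Igha was 0.192, 0.727 and 0.246 in flox and 0.42, 0.674, 0.278 and 0.826 in KO. It was lowest in flox 1, where Igha was highest. The log2 ratio was higher by 0.63 in KO (exact permutation p = 0.314, adjusted p = 0.457). Single libraries moved it to 0.26 (without flox 1), 1.21 (without flox 2) and 0.40 (without KO 4).

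RNA typical of the epithelium of the intestine, an organ rich in IgA plasma cells, was also measured beside Igha. Summed over 34 intestinal genes, it stood at 135 to 147 CPM in flox and 254 to 316 CPM in KO, and the edgeR test called 18 of the 34 higher. That list was written with these calls known. Fcgbp, a mucus protein gene, rose by 1.48 (SE 0.09, edgeR adjusted p = 0.00044), Clca1 by 1.65, the keratin gene Krt8 by 1.05 and the brush border protease gene Mep1a by 1.24. The library with the most Igha, flox 1, stood at 147 CPM of intestinal genes, the highest of the flox libraries (135 and 141 CPM in flox 2 and flox 3) and below every KO library. The part of intestinal RNA in the Igha values was not tested.

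**Figure D2:**
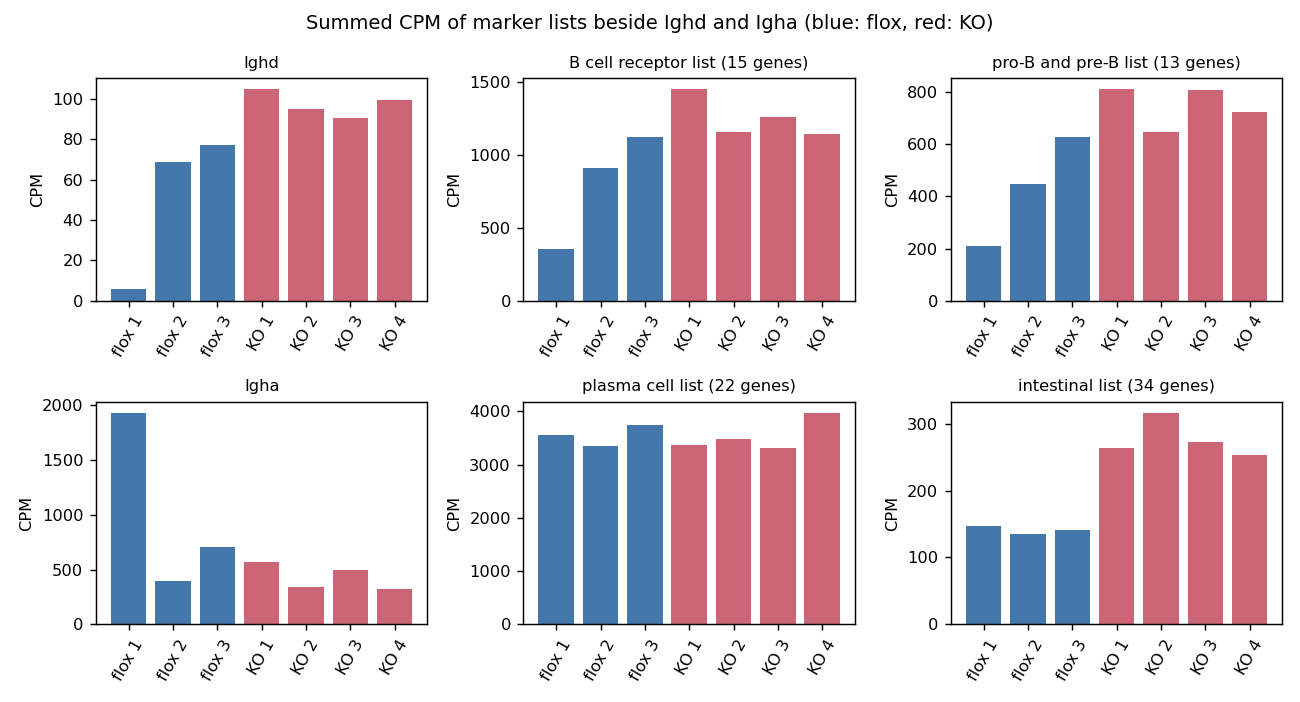
CPM of Ighd and Igha and summed CPM of 4 marker lists in each library (flox blue, KO red). Ighd and both B lineage lists are lowest in flox 1, Igha is highest there at 1934 CPM, and the intestinal list is higher in every KO library than in every flox library.

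Of the 4 IgG genes, Ighg2c separated the groups by level and none passed the test. Ighg2c, a subclass gene associated with type 1 and antiviral responses, stood at 20.2, 75.9 and 7.74 CPM in flox and at 82.9, 93.6, 105 and 129 CPM in KO. Every KO library was above every flox library, though flox 2 came close to KO 1. Group means were 34.6 ± 36.3 CPM for flox (SD, n = 3) and 103 ± 19.8 CPM for KO (SD, n = 4). Its log2 fold change was 1.57 (95% interval -0.29 to 3.42, SE 0.75, adjusted p = 0.42 by edgeR). Over the alternatives run it stayed between 1.09 and 2.90, with adjusted p from 0.201 to 0.628, and the highest value was that without flox 2.

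Ighg2b, the neighbouring gene and the one with which Ighg2c shared windows, showed no such split. It stood at 63.3, 183 and 34.2 CPM in flox and at 40.9, 117, 34.8 and 47.5 CPM in KO. Flox 2 and KO 2 were high and the groups overlapped. The estimate was -0.64 on the log2 scale (SE 0.70, adjusted p = 0.762 by edgeR), and without flox 2 it was 0.32.

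Ighg3, the first Ighg gene of the locus, stood at 4.4, 62.1 and 27.9 CPM in flox and at 2.89, 33.97, 6.48 and 1.02 CPM in KO. Flox 2, KO 2 and flox 3 were high, and KO 4 had 45 counts in all. Its log2 fold change was -1.5 (95% interval -4.75 to 1.75, SE 1.32, adjusted p = 0.689 by edgeR), the widest interval of the 9 members. It was -3.18 without KO 2 (adjusted p = 0.392 by edgeR) and -0.53 without flox 2. Ighg1, a subclass gene associated with type 2 responses, stood at 32.2, 40.6 and 50.6 CPM in flox and at 49.6, 47.8, 59.4 and 28.5 CPM in KO. Its groups overlapped, at 0.17 on the log2 scale (SE 0.26, adjusted p = 0.831 by edgeR), and from 0.02 without flox 1 to 0.35 without flox 3.

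**Figure D3:**
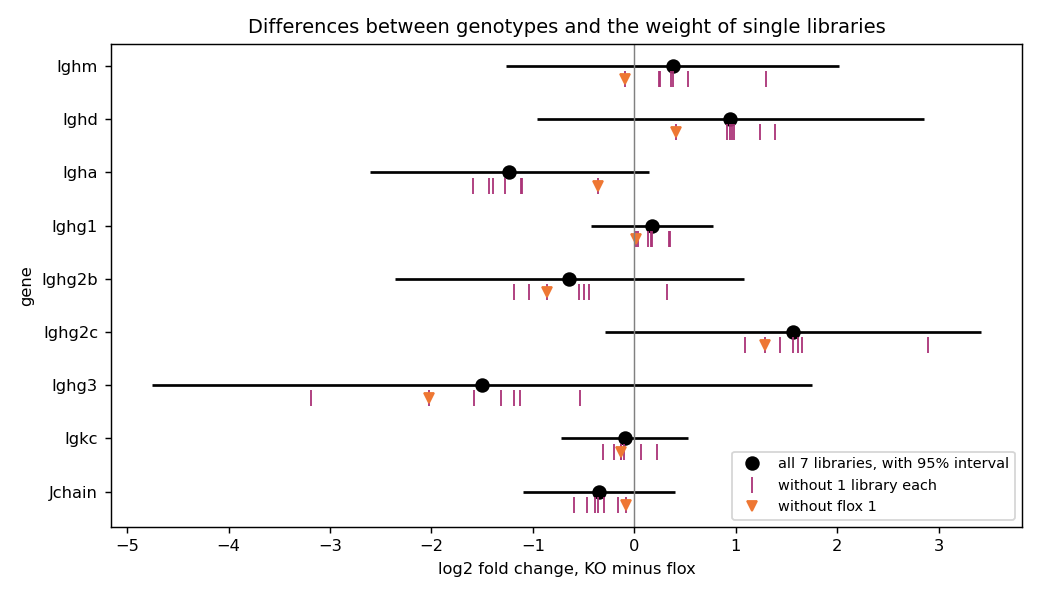
Log2 fold change (KO minus flox) of each gene with its 95% interval (black), and the values with 1 library left out (ticks; triangle for flox 1). All 9 intervals include 0, and the value of Igha moves from -1.23 to -0.36 without flox 1.

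Isotype shares compare the heavy chain genes within a library, so they do not depend on library size. Each share is a gene's counts per kilobase of exon over the sum of all heavy chain genes, Ighe included, behind which stood 90012 to 161407 counts per library. Wilson 95% intervals of the plain count shares reached at most 0.322 percentage points to either side, for counting error only. Ighm held 17.0%, 79.0% and 61.3% in flox and 71.5%, 73.3%, 63.3% and 79.0% in KO. It was the leading isotype in 6 libraries, and flox 1 was the exception. Igha held 77.0%, 8.83% and 28.9% in flox and 16.5%, 10.5%, 19.4% and 8.52% in KO. The IgA share of flox 1 was far above all others, and the other 2 flox libraries spanned a range that overlapped KO.

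In flox 1, the library with the fewest B lineage transcripts, class-switched genes outweighed the unswitched ones. The ratio of summed Igha and Ighg genes to Ighm and Ighd was 4.76 in flox 1. It was 0.231 in flox 2, 0.521 in flox 3 and between 0.21 and 0.465 in the KO libraries. The mean share was 52.5% ± 31.9 (SD, n = 3) in flox and 71.8% ± 6.50 (SD, n = 4) in KO for Ighm, and 38.2% ± 35.04 and 13.7% ± 5.08 for Igha. These differences were within the spread (exact permutation p = 0.314 and 0.143, both adjusted p = 0.457). Without flox 1 they were 1.59 and -5.12 percentage points.

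**Figure D4:**
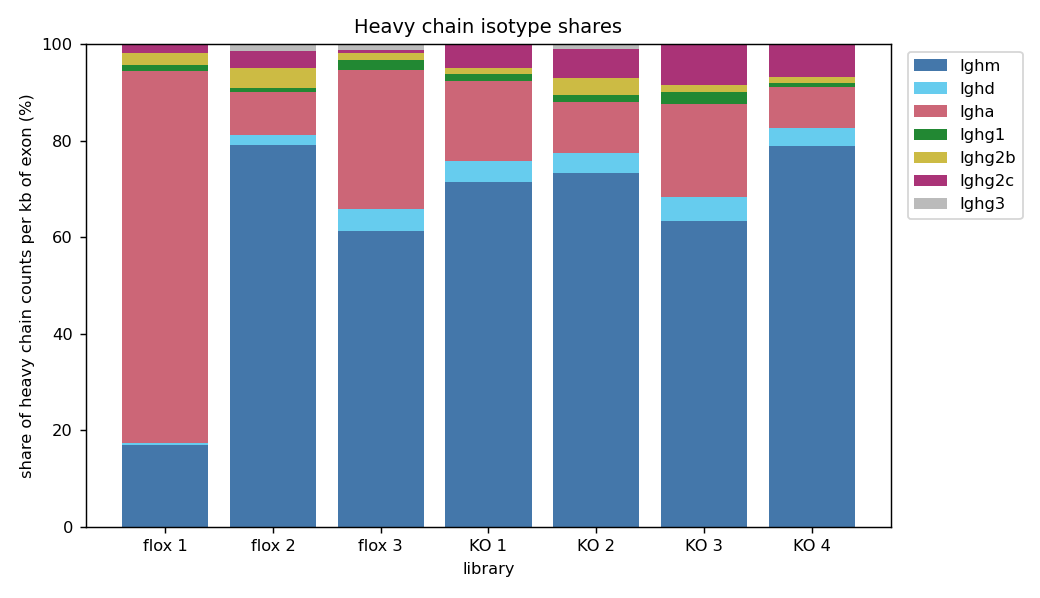
Share of each heavy chain gene in the summed heavy chain counts per kilobase of exon (%), 1 bar per library. Igha makes up 77.0% of flox 1 and at most 28.9% of any other library, where Ighm leads.

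Ighd held 0.314%, 2.17% and 4.43% in flox and 3.65% to 5.01% in KO (exact permutation p = 0.143, adjusted p = 0.457). The difference of 1.97 percentage points was 0.973 without flox 1. Its share in flox 3 lay within the KO range, so the separation seen in its level did not hold for its share. Ighg2c held 1.62%, 3.44% and 0.635% in flox and 4.87%, 5.82%, 8.30% and 6.81% in KO. It was the only one of 12 shares and ratios whose groups did not overlap. The difference was 4.55 percentage points, with p = 0.0286 in the exact two-sided permutation test, the smallest it can give, and an adjusted p of 0.343 over the 12. With 1 library left out it ranged from 3.92 to 5.32 points. The shares of Ighg1 (0.769% to 2.41%), Ighg2b (1.19% to 4.10%) and Ighg3 (0.0285% to 1.48%) overlapped, with exact permutation adjusted p of 0.873, 0.514 and 0.457.

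Among the 4 IgG genes alone, Ighg2c led in all 4 KO libraries, at 63.7%, 48.3%, 67.2% and 77.0% of their summed counts per kilobase, and in 0 of 3 flox libraries, at 28.8%, 34.5% and 11.9%. Ighg2b led in flox 1 (44.5%) and flox 2 (41.1%), and Ighg1 in flox 3 (39.6%). The annotated exons of Ighg2c are shorter (1326 bases) than those of Ighg2b (2678 bases), which raises its share per kilobase. By plain counts Ighg2b led in KO 2 as well (5470 against 4387 counts), and Ighg2c still led in the other 3 KO libraries. IgG genes as a whole held 5.36% to 9.96% of heavy chain counts per kilobase in flox and 7.64% to 12.3% in KO.

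**Figure D5:**
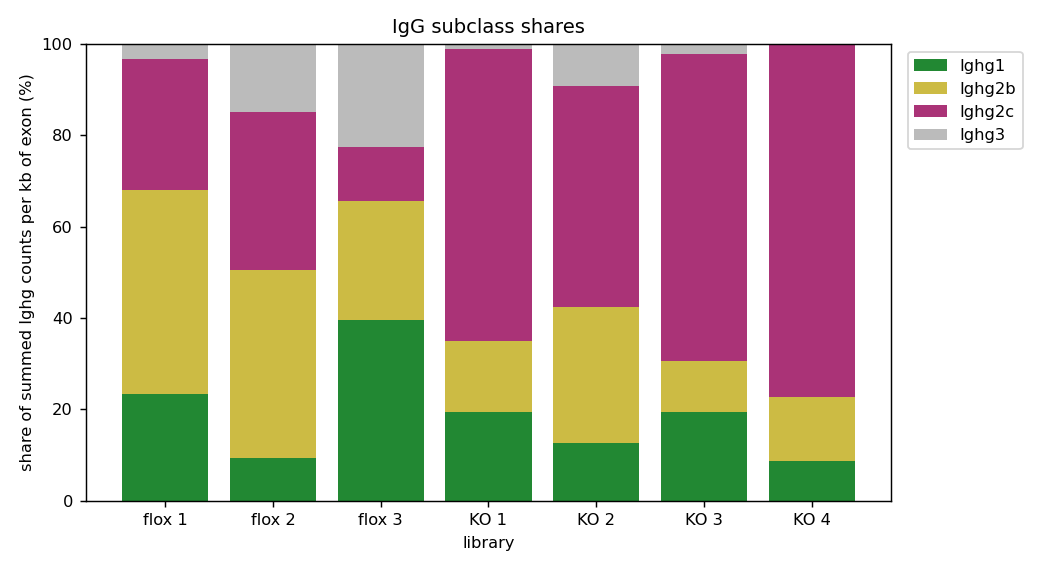
Share of each Ighg gene in their summed counts per kilobase of exon (%), 1 bar per library. Ighg2c is the largest part of each KO bar, from 48.3% to 77.0%, and of no flox bar.

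No light chain gene passed the test. Igkc stood at 752, 1083 and 536 CPM in flox and at 792, 766, 506 and 898 CPM in KO. The groups overlapped, with flox 2 highest and KO 3 lowest, and the estimate on the log2 scale was -0.09 (95% interval -0.72 to 0.53, SE 0.27, adjusted p = 0.923 by edgeR). Its ratio to the heavy chain sum per kilobase was 1.10 to 1.502 in flox and 0.998 to 1.19 in KO (exact permutation p = 0.343, adjusted p = 0.457). On the log2 scale the difference was -0.16, and -0.04 without flox 1. Lambda constant genes, which are not among the 9, made up 15.3%, 7.71% and 13.8% of light chain counts per kilobase in flox and 11.7%, 10.6%, 17.4% and 9.74% in KO. The kappa to lambda ratio did not differ beyond the spread (exact permutation p = 0.943, adjusted p = 0.943). Of the 6 constant genes outside the 9, 4 were tested and 0 passed, with log2 fold changes of -0.28 for Iglc2, 0.35 for Iglc3, -0.21 for Ighe and -0.11 for Iglc1. Their median was -0.16, and 0.05 without flox 1. Iglc2 and Iglc3 share 43 windows of 50 bases, and an antisense gene overlaps Iglc3, so these values are uncertain.

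Genes of the plasma cell and of antibody secretion showed no common direction. Of 22, 0 passed, 10 were positive and 12 negative, with a median log2 fold change of -0.06, or -0.02 without flox 1. The cell surface gene Slamf7 gave 0.94 (SE 0.26, edgeR adjusted p = 0.23), the secretory pathway genes Edem1 -0.28 and Fkbp11 -0.83, and Xbp1, the transcription factor of the secretory programme, -0.25. Their sum was 3343 to 3741 CPM in flox and 3301 to 3972 CPM in KO, of which Prg2, also a major eosinophil gene, made up 536 to 1400 CPM. Tent5c made up a further 785 to 1583 CPM, so the sum says little about the other genes of the list. Flox 1, with the most Igha, was the lowest library for 7 of the 22 genes and the highest for 1, and it lay between the others for 14. That 1 gene was Ell2 (73.6 CPM, against 46.0 to 63.6 CPM in the other libraries). Among the 7 were Mzb1 (6.43 CPM, against 17.7 to 25.6 CPM in the other libraries), Irf4 (12.2 against 32.9 to 78.6 CPM) and Pou2af1 (13.9 against 72.4 to 148 CPM), which B cells also express. Among the 14 were Tnfrsf17 (0.618 CPM, in a range of 0.299 to 0.865), Derl3 (2.25 CPM, 1.43 to 3.91) and Sdc1 (11.2 CPM, 11.0 to 17.0).

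The machinery of class switching was measured as 19 genes, most of which serve DNA repair in all dividing cells. Of these, 16 were positive and 0 passed, with a median of 0.09. The end-joining genes Xrcc5 (0.25, edgeR adjusted p = 0.278), Xrcc6 (0.36) and Lig4 (0.70) and the exonuclease gene Exo1 (0.14) had the lowest p.

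Receptors that bind antibodies gave 1 call among 15 genes, with a median of -0.06. Pigr, which carries IgA and IgM with Jchain across epithelia and is itself an intestinal gene, rose by 1.21 (SE 0.14, edgeR adjusted p = 0.0175), from 3.78 to 4.92 CPM in flox to 9.0 to 11.7 CPM in KO, along with the intestinal genes above. Fcgr3 (-0.27) and Fcgr2b (-0.17), the activating and inhibitory IgG receptor genes, and the B cell gene Fcrl1 (0.60) did not pass. Of 12 homing and survival genes of plasma cells 0 passed, with a median of -0.01. Their lowest p belonged to the survival factor genes Tnfsf13 (-0.62) and Tnfsf13b (-0.31), both with edgeR adjusted p = 0.22, and the chemokine receptor genes Ccr9 (0.49) and Cxcr3 (0.39).

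Marker lists of other marrow cells had 0 calls each. Medians were 0.11 for 12 T cell genes, -0.38 for 12 neutrophil genes, -0.20 for 9 monocyte and macrophage genes, 0.28 for 10 erythroid genes and -0.74 for 10 stromal and endothelial genes. Without flox 1 they were 0.21, -0.42, -0.05, 0.47 and -0.41 in that order. Negative values were found for 12 of 12 neutrophil genes, 9 of 9 monocyte genes and 9 of 10 stromal genes, and positive ones for 10 of 10 erythroid and 8 of 12 T cell genes.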

How the data were processed

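The authors deposited raw read counts per Ensembl gene in 1 table with a column per library. Per the submitters' processing notes, Trimmomatic 0.36, STAR 2.5.2b and featureCounts of Subread 1.5.2 were used with GRCm38. Annotation release, strand setting and treatment of reads with several matches: not given in the sources used here. GENCODE M21 named 49056 of 49315 IDs, and 0 columns were unmapped.

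Genes with low counts were removed by filterByExpr (minimum count 10), and the rest were scaled by TMM and fitted with robust glmQLFit in edgeR 4.0.16 (R 4.3.3). KO was compared with flox over 17920 genes, two-sided, and called at a Benjamini-Hochberg adjusted p of 0.05. Standard errors follow from the F statistic. Alternatives used DESeq2 1.42.0, limma 3.58.1, other scalings, filters and gene lengths. The script was tested on simulated data. The edgeR fit recovered 44% of 1.5-fold, 56% of 2-fold, 86% of 3-fold and 90% of 4-fold changes there. Of 149 calls 11 were false. Recovery for the members alone was not tested. Chi-square per degree of freedom between libraries of a group ran from 19.0 to 90.6, so all were counted separately.

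Shares and ratios were compared with exact permutation tests over 35 label arrangements. The 9 genes and the 13 lists were chosen with earlier results of these data known. Named genes are the 9, up to 4 of each list by lowest p, and for Ighm, Igha and Ighg2b the 5 genes (mean log2 CPM at least 1, without antibody segments and predicted models) of most similar log2 CPM (prior count 2), of which 1 is not reported here. Cd79a, Btk, Cd180, Cd37, Vpreb1, Cd93, Erg, Mzb1, Irf4, Pou2af1, Ell2, Sdc1, Tnfrsf17, Derl3, Prg2, Tent5c and the variable segments were named after their values were seen.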

Additional observations from a re-analysis of the deposited data

Results flagged for a closer look

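In the 4 KO libraries, 21 levels, shares and ratios were examined for a single library far from the other 3, and chance marks about 1 in 20 such groups. KO 2 was the far library for 3 of the 4 that stood out. Its Ighg2b level was 117 CPM, against 47.5 CPM for the next library, and its Ighg2b share of heavy chain counts was 3.59%, against 1.36%. Its Ighg3 level was 33.97 CPM, against 6.48 CPM. The log2 ratio of Igkc to the heavy chain sum was -0.00233 in KO 3, against 0.21 in the nearest library.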

How the results depend on the processing

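The replicate numbers shared by flox and KO pair no samples by the labels, and deviations of same-numbered libraries correlated at -0.02, 0.08 and 0.02. With the replicate number as a block, 4 genes passed over all genes and 0 members, and 0 shares or ratios changed sign. The count of 26 genes was 112 without a filter on low counts, 16 with non-robust dispersion, 365 with DESeq2, 13 with limma-voom and 2 to 14 with 1 library left out. The number of members called was 0 under each of these. Of 153 alternative values for the members, 149 kept their sign. Those that did not were Ighm without flox 1, Ighg2b without flox 2, and Igkc without flox 2 (0.221) or KO 3 (0.063). With 1 library left out, Ighm ran from -0.093 to 1.30, Ighg2b from -1.18 to 0.32 and Igkc from -0.311 to 0.221. Among 132 alternative shares and ratios 127 kept their sign. With the shortest annotated transcript as gene length, chosen after seeing the data, the log2 ratio of Igkc to the heavy chain sum differed by 0.064. With 1 library left out, the Ighg1 share difference ran from -0.201 to 0.417 percentage points, being -0.175 without flox 2 and -0.201 without KO 3, and the log2 kappa to lambda ratio from -0.25 to 0.304, being 0.304 without flox 2 and 0.168 without KO 3. The cause was not tested. Depth limits few values here, as the lowest member count was 45, and the spread between 3 and 4 libraries sets the width of the intervals.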

Other observations

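Variable segments, which sit in the same transcripts as the constant regions, of the heavy chain were most unevenly used in flox 2, the library with the most Ighm, Ighg2b and Ighg3. There the heavy chain segment Ighv5-4 stood at 421 CPM and made up 56.7% of the summed CPM of 113 Ighv genes. In the other 6 libraries the leading Ighv segment made up 5.30% to 17.7%. For kappa, the leading segment held more in KO 2 (Igkv3-4, 27.4% of Igkv CPM) than in flox 2 (Igkv1-117, 22.3%), while the 5 leading segments together held 62.7% in flox 2 and 46.6% in KO 2, against 27.5% to 38.8% in the other 5 libraries. In flox 1, with an IgA share of 77.0%, the leading Ighv segment, Ighv6-3, held 6.46%. Near-identical segments can share reads, so single segments are uncertain.

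Genes whose log2 CPM ran most like 3 members over the 7 libraries, among 11291 compared, are given as a description only. Flox 1 stood apart on the first principal component, so each correlation is also given without flox 1. For Ighm they were Xrn2 (Pearson r = 0.99, and 0.95 without flox 1), Fam3c (0.98, and 0.91), Panx1 (0.97, and 0.84), Usp28 (0.96, and 0.79) and Abhd17b (0.96, and 0.76). For Igha they were Lpl (0.99, and 0.98 without flox 1), Rtn4rl1 (0.98, and 0.91), Foxc1 (0.97, and 0.88) and Ctsd (0.97, and 0.87). For Ighg2b they were Dph7 (0.995, and 0.995 without flox 1), Mfsd7a (0.98, and 0.98), mt-Nd4 (0.97, and 0.98), Rdh5 (0.96, and 0.98) and Gpr137 (0.96, and 0.99). None of these belongs to the B lineage or plasma cell lists, and 49 to 91 genes per member exceeded r = 0.9.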
